A study of Solanum tuberosum with 6 samples.

Results

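Transcripts of some leaf genes were at least 2-fold lower after cold in the potato cultivar Atlantic. In the cultivars KY130 and KY140, the means of the same gene copies after cold were 0.67 to 1.5 of the untreated means. Single libraries could lie further apart. The 38 members described here are such genes, out of 114281 genes in the count table, of which 90017 carry an identifier of the Atlantic annotation (Soltu.Atl). They were chosen by their CPM, the count of a gene scaled to a library total of 1000000. In Atlantic the highest cold-stressed library had to lie at or below 0.5 of the lowest untreated library, with a mean of at least 5 CPM in untreated Atlantic. In KY130 and KY140 the untreated mean had to be at least 5 CPM too, and the ratio of the mean after cold to the untreated mean had to fall between 0.67 and 1.5. The Atlantic decrease and the small KY130 and KY140 ratios are therefore what chose the genes, and they are given below as a description and not as a finding.

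The study followed leaf RNA of virus-free tissue culture seedlings, grown for 18 days on MS medium, by poly(A) RNA sequencing. Cold-stressed plants (CS-Atlantic, CS-KY130 and CS-KY140) spent 12 h at −4°C, and untreated plants (Atlantic, KY130 and KY140) were kept at 25°C. The labels give every group as wild type, so the cultivars differ in their whole genetic background and not in a single allele. Atlantic is described by the study as cold-resistant and KY140 as cold-sensitive, and nothing of the kind was given for KY130 in the sources used here. The treatment field of the labels says 12C for the cold groups where their titles give −4°C, and the title was followed. Each of the 6 groups is 1 record in the labels with 3 numbered libraries in the table, 18 in all. The study's methods, which cover Atlantic and KY140, give 3 biological replicates, and whether each had its own cold exposure is not stated, so the p-values below measure the spread between these libraries.

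Leaves exposed to cold both raise and lower transcripts. The raised set is the better known, with the CBF transcription factors and the genes for protective proteins and sugars that they switch on, but lowered transcripts, often of genes for growth and photosynthesis, are an equally regular part of a cold response in plants. Repression can follow from less transcription or from faster RNA decay, and a transcript count does not separate these. Cultivated potato is tetraploid and carries several copies of each chromosome, and the Atlantic annotation numbers genes on separate copies, so that a member is 1 copy of a gene and its near-identical sister copies can be other rows of the table. How reads shared between copies were handled is not given in the sources used here, so the level of a single copy is uncertain, and more so in KY130 and KY140, whose reads were counted on gene models of another cultivar. In whole leaves, fewer cells of a type and less RNA per cell cannot be told apart.

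The table does not pair its identifiers with gene names, and 0 of them were found in the RefSeq potato annotation. The members are therefore named by identifier, with no role given, and the leaf label could not be set against marker genes. None of the 12 genes that the study names by identifier is a member. Of these, 10 reached the untreated minimum of 5 CPM in all 3 cultivars, and 1 met the Atlantic criterion. That gene is StCSE (Soltu.Atl.04_4G005370), an enzyme of the lignin pathway, and it fell outside the members because its ratio of cold to untreated was 0.326 in KY130 and 0.299 in KY140, beside 0.229 in Atlantic.

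Library totals were 11047494 to 14971945 counts, and 45305 to 74628 genes had a count. Correlations of log2(CPM + 1) between libraries of 1 group ran from 0.837 to 0.945, the lowest among untreated KY140 libraries, and no pair of libraries was identical. A total of 13553 Soltu.Atl genes reached 5 CPM in the untreated libraries of all 3 cultivars and are called here the genes at the untreated minimum. Over these genes the median ratio of cold to untreated was 0.841 in Atlantic, 0.840 in KY130 and 0.864 in KY140. The minimum was set on untreated libraries only, which favours ratios under 1, and CPM uses library totals. In the edgeR fits, which use TMM scaling, their median log2FC was −0.133 in Atlantic, −0.125 in KY130 and −0.110 in KY140. Over all genes tested it was −0.070, −0.067 and 0.071. The ratios are therefore a background for the members and not a cold response of the cultivars.

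Of the genes at the untreated minimum, 344 (2.54%) met the Atlantic criterion, and 4839 (35.7%) lay within the ratio window in both KY130 and KY140. The 38 members are the genes in both sets, which is 11.05% of the first and 0.785% of the second. Most genes that met the Atlantic criterion were under the window in KY130, in KY140 or in both. Of the 344, 159 had ratios under 0.67 in KY130 and in KY140. A further 63 were under 0.67 in KY130 and within the window in KY140, and 65 were within the window in KY130 and under 0.67 in KY140. The shares of all genes at the untreated minimum with such ratios were not counted, so nothing is read from these counts. Besides the 344, 553 of 897 genes that met the criterion in Atlantic with its own minimum of 5 CPM were under that minimum in untreated KY130 or KY140. These could not be members. Of all 31944 Soltu.Atl genes at 5 CPM in untreated Atlantic, only 13553 reached it in all 3 cultivars, so this was common among genes in general.

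In Atlantic the 38 members fell to between 0.163 and 0.410 of the untreated mean, with a median of 0.282, which is a 3.55-fold decrease. At least 3-fold lower means were found for 32 members, at least 4-fold for 10 and at least 5-fold for 7. The summed level of the 38 members was 484, 585 and 529 CPM in the CS-Atlantic libraries, against 1638, 1864 and 1730 CPM in the Atlantic libraries. It averaged 533 ± 50.6 CPM in CS-Atlantic and 1744 ± 114 CPM in Atlantic (SD, n = 3 each). In the KY cultivars the same sum overlapped between conditions, with 1407 ± 401 CPM in CS-KY130 and 1654 ± 116 CPM in KY130, and with 756 ± 143 CPM in CS-KY140 and 834 ± 148 CPM in KY140 (SD, n = 3 each). All 6 KY140 libraries of both conditions were thus above CS-Atlantic and below untreated Atlantic in this sum, and untreated KY130 overlapped with untreated Atlantic, although a sum is carried by its few highest members.

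**Figure D1:**
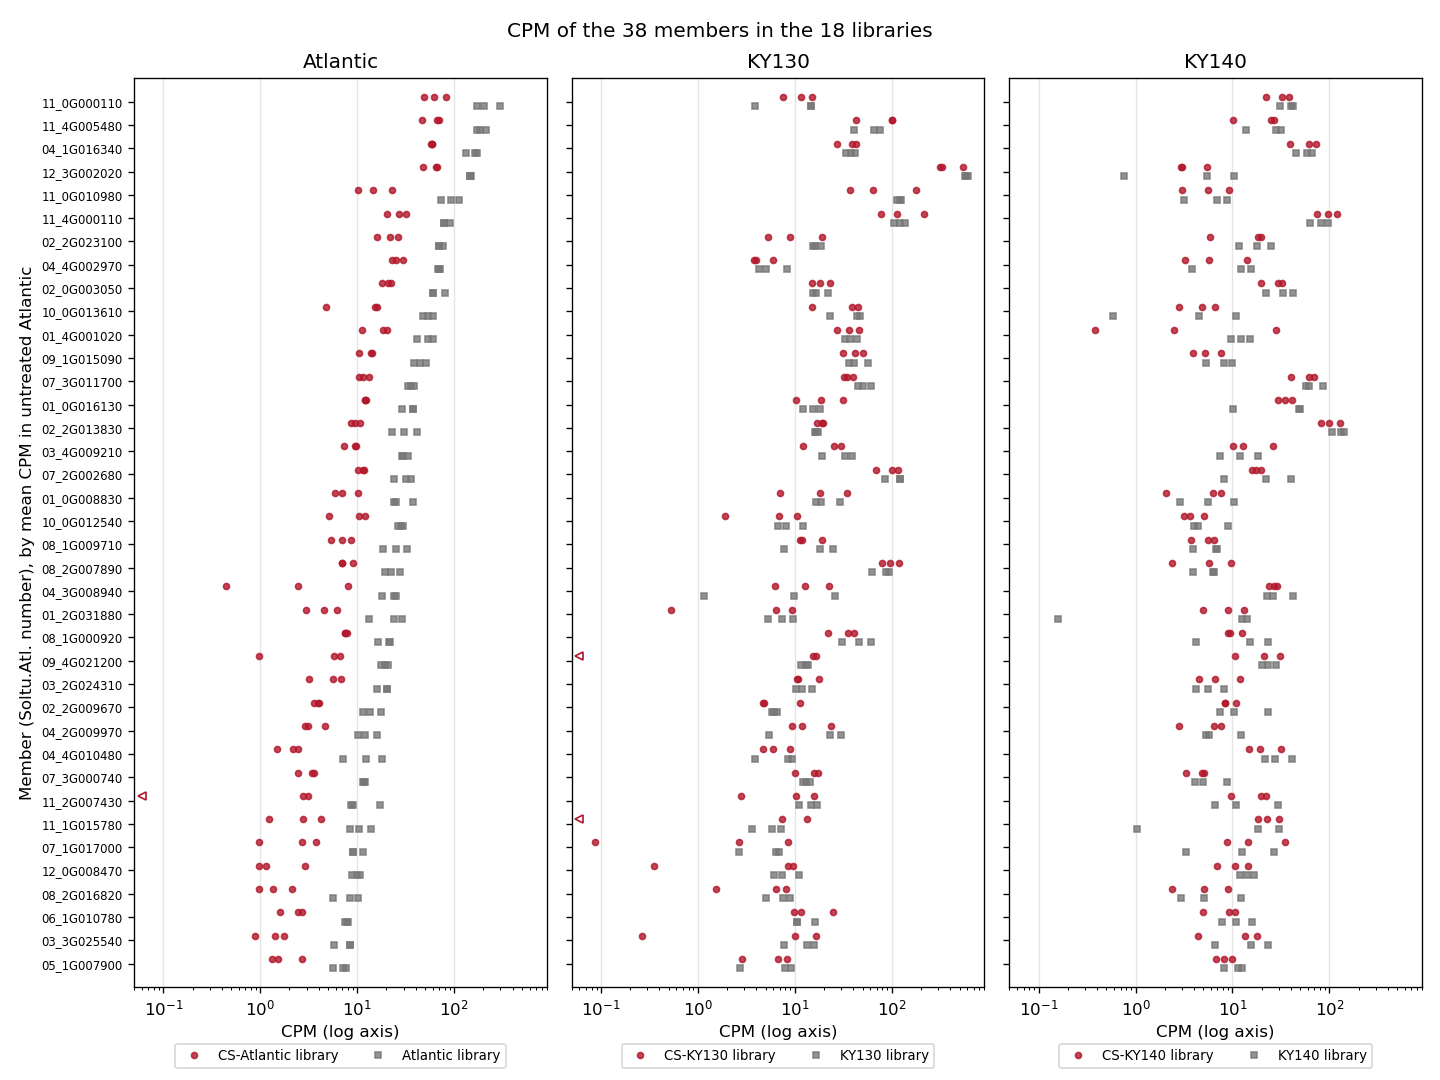
CPM of each of the 38 members (rows, ordered by mean CPM in untreated Atlantic) on a log axis, with circles for the 3 cold-stressed libraries and squares for the 3 untreated libraries of Atlantic, KY130 and KY140; open triangles at the left edge stand for 0 counts. The circles lie left of the squares for all 38 members in Atlantic, as the rule requires, and mix with the squares for 36 members in KY130 and for 38 in KY140.

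The median level of the members was 7.68 CPM in CS-Atlantic and 26.7 CPM in Atlantic, and the median member had 14.6 CPM in CS-KY130 against 15.9 CPM in KY130, and 10.5 CPM in CS-KY140 against 13.9 CPM in KY140. The genes at the untreated minimum had a median of 17.1 CPM in CS-Atlantic and 19.2 CPM in Atlantic. Across the 38 members, a lower untreated Atlantic level went with a lower ratio (Pearson's r of 0.472 and Spearman's rho of 0.546 between log2 CPM and log2 ratio, as a description over points that share their libraries). The 12 members under 15 CPM in untreated Atlantic had a median ratio of 0.252, and the 26 at or above 15 CPM had 0.304. Both the untreated level and the decrease took part in the choice, and the untreated mean is also the denominator of the ratio. Nothing is therefore read from this relation.

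The 4 lowest Atlantic ratios belonged to members with untreated Atlantic means of 9.78 to 22.3 CPM. Soltu.Atl.04_4G010480 had 2.45, 1.49 and 2.17 CPM in CS-Atlantic and 7.17, 18.1 and 12.3 CPM in Atlantic, a 6.15-fold lower mean. In KY130 it had 5.89, 8.87 and 4.64 CPM after cold and 3.87, 9.28 and 8.43 CPM untreated, and in KY140 it had 31.4, 19.2 and 14.6 CPM after cold and 41.5, 21.5 and 27.2 CPM untreated. The conditions overlapped in both KY cultivars, and 5 of the 6 KY140 libraries were above every library of the other cultivars.

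Soltu.Atl.04_3G008940 had 2.45, 0.439 and 8.04 CPM in CS-Atlantic against 24.9, 23.8 and 18.0 CPM in Atlantic, a 6.11-fold lower mean with a wide spread among the cold libraries. Its KY130 values ran from 6.24 to 22.4 CPM after cold and from 1.17 to 25.9 CPM untreated, so its ratio of 1.12 there rests on untreated libraries that were themselves far apart. In KY140 it had 29.0, 26.9 and 23.5 CPM after cold against 22.5, 42.3 and 26.2 CPM untreated. No decrease beyond the library spread was seen in either KY cultivar.

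Soltu.Atl.11_2G007430 had 2.78, 3.07 and 0 CPM in CS-Atlantic and 8.62, 17.1 and 9.09 CPM in Atlantic. The 0 in CS-Atlantic replicate 3 allows up to 3 counts, or 0.241 CPM, for counting error only. Its KY130 ratio of 0.678 was close to the lower edge of the window, with 10.3, 2.81 and 15.7 CPM in CS-KY130 against 14.6, 11.1 and 16.8 CPM in KY130, and its KY140 ratio was 1.10. The fourth of this group, Soltu.Atl.12_0G008470, had 2.87, 1.14 and 0.965 CPM in CS-Atlantic and 8.88, 10.7 and 9.82 CPM in Atlantic. In KY130, replicate 1 stood apart after cold (0.351 CPM, against 9.59 and 8.50 CPM in the other CS-KY130 libraries and 6.11 to 11 CPM in KY130), and the other CS-KY130 libraries lay within the untreated range.

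The 4 most abundant members in untreated Atlantic had smaller decreases. Soltu.Atl.11_0G000110 had 48.4, 82.1 and 61.4 CPM in CS-Atlantic and 174, 297 and 202 CPM in Atlantic, a 3.51-fold lower mean. It was far lower in KY130 (11.5, 7.60 and 15.2 CPM after cold, 14.6, 3.92 and 14.6 CPM untreated) and in KY140 (22.2, 38.3 and 32.2 CPM after cold, 41.9, 30.7 and 40.1 CPM untreated). Cold thus left this gene in Atlantic above every library of both KY cultivars.

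Soltu.Atl.11_4G005480 had 47.0, 69.0 and 65.8 CPM in CS-Atlantic against 185, 214 and 173 CPM in Atlantic. In KY130 its mean was higher after cold, with 101, 42.5 and 99.4 CPM in CS-KY130 against 65.8, 74.9 and 40.9 CPM in KY130, and its ratio of 1.34 was the highest of any member there. The libraries overlapped, since CS-KY130 replicate 2 lay below 2 of the untreated ones. KY140 had 24.7, 27.1 and 10 CPM after cold and 13.7, 27.8 and 31.8 CPM untreated.

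Soltu.Atl.04_1G016340 had nearly equal cold libraries, with 58.3, 59.6 and 57.1 CPM in CS-Atlantic against 132, 165 and 171 CPM in Atlantic. CS-KY130 had 27.3, 43.1 and 38.7 CPM and KY130 had 42.1, 37.8 and 34.0 CPM. CS-KY140 had 71.9, 61.6 and 39.3 CPM and KY140 had 45.2, 58.7 and 66.5 CPM. After cold, Atlantic had come down to the range that KY140 showed in both conditions.

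Soltu.Atl.12_3G002020 had the smallest decrease of the members in Atlantic (47.8, 66.0 and 65.2 CPM in CS-Atlantic against 148, 144 and 145 CPM in Atlantic, 2.44-fold). It was also lower in every CS-KY130 library (315, 330 and 539 CPM) than in every KY130 library (565, 608 and 577 CPM), at a ratio of 0.676, so by its values it was not lower in Atlantic alone. KY140 had little of the transcript, with 3.01, 5.41 and 2.91 CPM after cold and 10.3, 5.46 and 0.759 CPM untreated. The other member that separated in this way in KY130 was Soltu.Atl.07_3G011700, at a ratio of 0.681.

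At the edge of the Atlantic criterion, Soltu.Atl.11_1G015780 and Soltu.Atl.01_4G001020 were just inside, with the highest CS-Atlantic library at 0.4997 and 0.4992 of the lowest Atlantic library. Soltu.Atl.02_3G019700 and Soltu.Atl.05_3G008570 were just outside at 0.5016 and 0.5017. Their mean Atlantic ratios (0.252 and 0.324 inside, 0.376 and 0.297 outside) interleaved, so nothing separated them but the threshold. As many as 21 members lay between 0.4 and 0.5 on this measure, and 65 genes that met all else lay between 0.5 and 0.6. The lower window edge was as crowded: the lowest member ratio was 0.671 in both KY130 and KY140, and the nearest genes left out for that edge alone were at 0.668 in KY130 and 0.662 in KY140. Of the 63 genes left out only for a KY130 ratio under 0.67, 32 were between 0.5 and 0.67, and of the 65 left out only in KY140, 28 were.

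**Figure D2:**
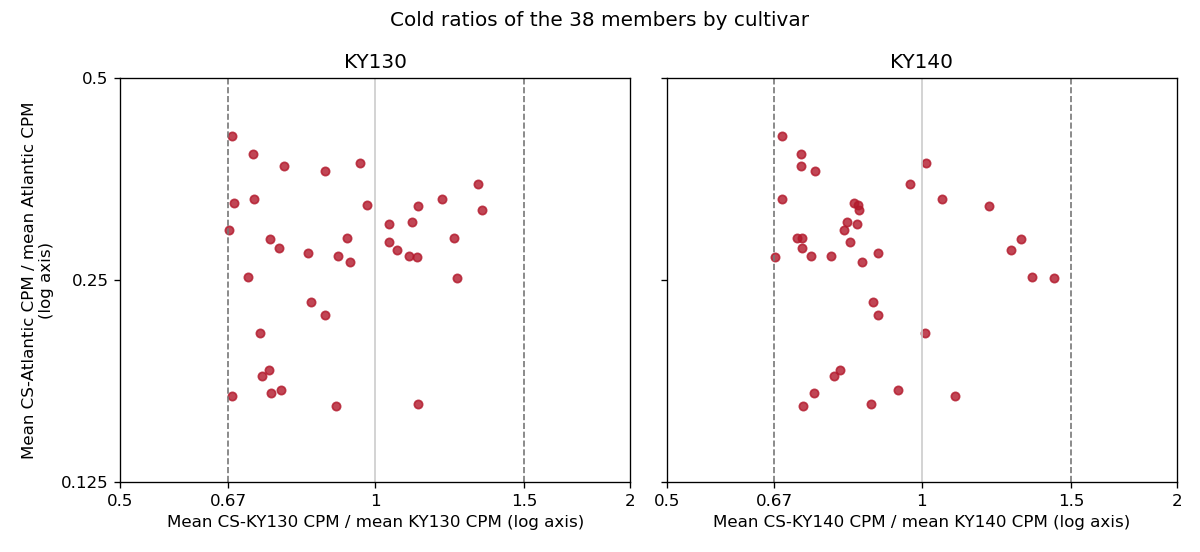
Ratio of mean CPM after cold to mean untreated CPM for the 38 members in Atlantic (vertical log axis) against the same ratio in KY130 (left) and KY140 (right, horizontal log axes), each point a member, with dashed lines at the window edges of 0.67 and 1.5. A ratio under 1 was found for 25 of 38 members in KY130 and 29 of 38 in KY140, beside 61.1% and 59.6% of the genes within both windows.

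More members had a ratio under 1 than above it. The KY130 ratio had a median of 0.886 and was under 1 for 25 of 38 members (65.8%), beside 65.5% of the genes at the untreated minimum and 61.1% of the genes within both windows. The KY140 ratio had a median of 0.835 and was under 1 for 29 of 38 members (76.3%), beside 62.8% and 59.6%. The ratio was under 1 in both cultivars for 20 members and above 1 in both for 4, and the ratios of the 2 cultivars went together only loosely (Spearman's rho of 0.181 over 38 members). A ratio from 0.8 to 1.2 in both cultivars was met by 11 members. At the ends of the window, 10 members were between 0.67 and 0.75 in KY130 and 12 in KY140, whereas 4 and 5 were above 1.2. The shares of other genes within both windows in these ranges were not counted, so nothing is read from these counts.

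Every CS-KY130 library was lower than every KY130 library for 2 of the 38 members, and higher for 0. At the untreated minimum the shares were 17.0% lower and 7.50% higher, and among genes within both windows 5.37% and 2.25%. In KY140 the counts were 0 and 0, with shares of 15.6% lower and 7.28% higher at the untreated minimum, and 5.04% and 1.45% among genes within both windows. A ratio held near 1 leaves little room for separated libraries, so these low counts follow from the choice of the members.

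The KY libraries were not tight around their means. Within a KY130 condition, 25 members had libraries more than 2-fold apart, and within a KY140 condition 28 had, compared with 14 in Atlantic. The coefficient of variation over 3 libraries had a median of 47.5% for the members in CS-KY130, beside 35.6% for the genes at the untreated minimum, and 36.7% in CS-KY140, beside 27.5%. In untreated KY130 it was 27.0% beside 25.0%, and in untreated KY140 40.7% beside 37.9%. In Atlantic the order turned for the untreated libraries, with 24.8% beside 23.1% in CS-Atlantic and 15.4% beside 21.2% in Atlantic. The rule bounds the lowest untreated Atlantic library but not the highest, and the highest value of a member there was 43.6%.

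Single libraries had lower members' medians than the others of their group in both KY cultivars. In log2 of CPM over the untreated mean of the cultivar, the median over the 38 members was −0.53, 0.06 and 0.01 in CS-KY130 replicates 1 to 3 and −0.09, −0.04 and −0.70 in CS-KY140 replicates 1 to 3. The medians of the genes at the untreated minimum were −0.33, −0.33 and −0.20 in CS-KY130 and −0.28, −0.18 and −0.28 in CS-KY140, so CS-KY130 replicate 1 and CS-KY140 replicate 3 did not stand apart in the same degree for other genes. In each of these 2 libraries 11 members (28.9%) were at or below 0.5 of the untreated mean, 4 of them in both. In CS-KY130 replicate 1 that share was close to the 27.8% of the genes at the untreated minimum, and 13.3% of the 4839 genes within both windows were as low. In CS-KY140 replicate 3 the shares were 20.0% and 5.06%. CS-KY140 replicate 3 was the highest library of its group for 0 of the 38 members, compared with 28.6% of the genes at the untreated minimum.

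An untreated library, KY140 replicate 1, was low as well, with a median of −0.42 over the members and −0.08 over the genes at the untreated minimum. In it 8 members (21.1%) were at or below 0.5 of the untreated mean, beside 17.9% of the genes at the untreated minimum, and it enters the denominator of every KY140 ratio.

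Without CS-KY130 replicate 1 the median KY130 ratio of the members was 1.06, and 23 members were above 1, while the genes at the untreated minimum stayed at 0.845. Without CS-KY140 replicate 3 the median KY140 ratio of the members was 0.955, with 17 above 1, and that of the genes at the untreated minimum was 0.868. The members Soltu.Atl.11_1G015780 and Soltu.Atl.09_4G021200 had 0 counts in CS-KY130 replicate 1, which allows up to 3 counts or 0.264 CPM. What set these libraries apart was not tested.

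**Figure D3:**
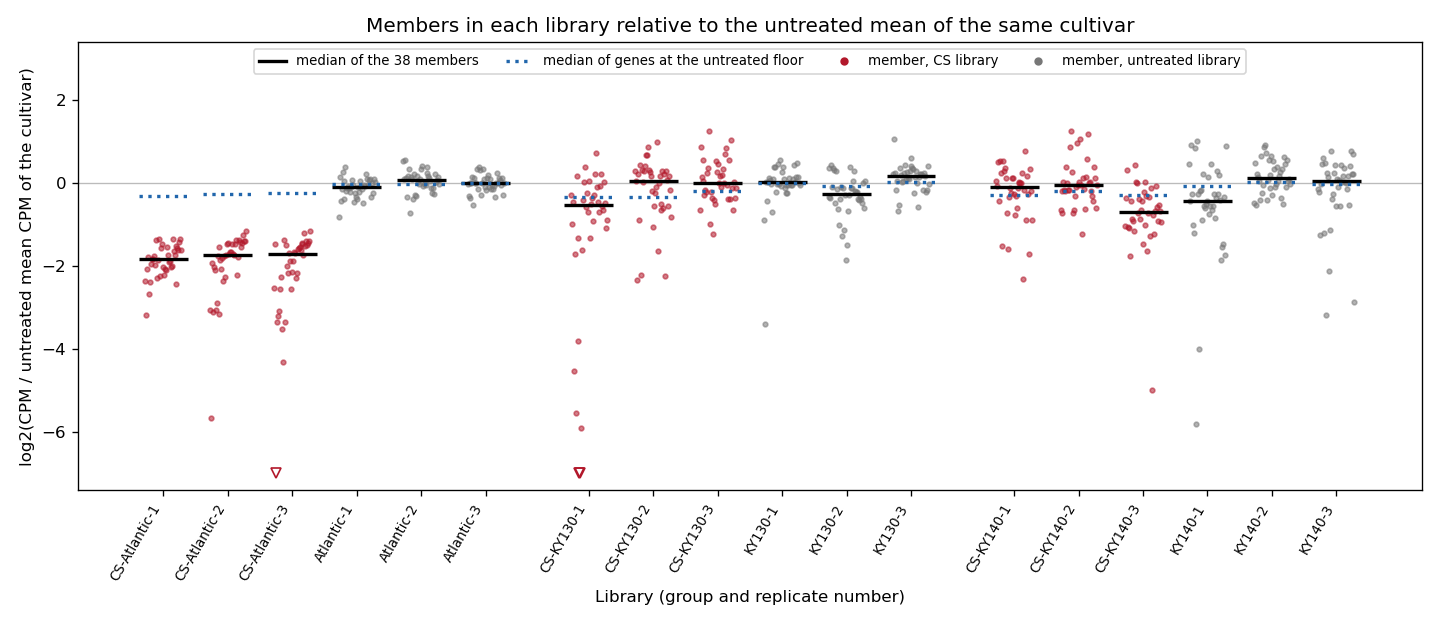
log2 of CPM over the untreated mean of the same cultivar for the 38 members (points, red in cold-stressed and grey in untreated libraries) in each of the 18 libraries, with black lines for the members' median and dotted blue lines for the median of the genes at the untreated minimum; triangles mark 0 counts. The CS-Atlantic medians lie between −1.84 and −1.71, and CS-KY130-1 (−0.53) and CS-KY140-3 (−0.70) lie below the other cold-stressed libraries of their cultivars.

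How far the pattern carried over to libraries that had no part in choosing the genes was described by leaving out all 6 libraries with 1 replicate number, applying the whole rule to the other 12, and reading the chosen genes in the libraries left out. The genes they are set beside reached 5 CPM in the untreated libraries among those 12, which gave 13561, 13210 and 13106 genes with numbers 1, 2 and 3 left out. With 2 libraries a group the rule was easier to meet and chose 136, 110 and 108 genes when numbers 1, 2 and 3 were left out, of which 15, 17 and 22 were among the 38 members. In the Atlantic pair left out, the ratio was at most 0.5 for 82 of 136 genes with number 1 (60.3%, beside 17.0% of the genes at that minimum), for 48 of 110 with number 2 (43.6%, beside 17.3%) and for 43 of 108 with number 3 (39.8%, beside 18.6%). Their median ratios there were 0.441, 0.576 and 0.577, beside 0.838, 0.861 and 0.873. The Atlantic decrease was thus found again in unused libraries for a larger share of chosen genes than of other genes, at a smaller size than in the libraries that chose them.

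The ratios in KY130 and KY140 did not carry over in the same way. The share of chosen genes within the window was below that of other genes in some pairs left out and above it in others. In the pairs left out, the KY130 ratio was within the window for 27.9%, 37.3% and 63.9% of the chosen genes with numbers 1, 2 and 3, beside 39.1%, 45.5% and 58.4% of the genes at that minimum. For KY140 it was 39.7%, 72.7% and 25.9%, beside 35.8%, 61.9% and 42.0%. The chosen genes were lower there than other genes in the pairs that hold the libraries named above: the median KY130 ratio with number 1 was 0.533, beside 0.792, and the median KY140 ratio with number 3 was 0.604, beside 0.892. All 3 limits were met by 8 (5.88%), 15 (13.6%) and 5 (4.63%) of the chosen genes, beside 1.75%, 4.04% and 3.51% of all genes at that minimum. A single library a group sets each of these ratios, so they hold the full library spread.

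**Figure D4:**
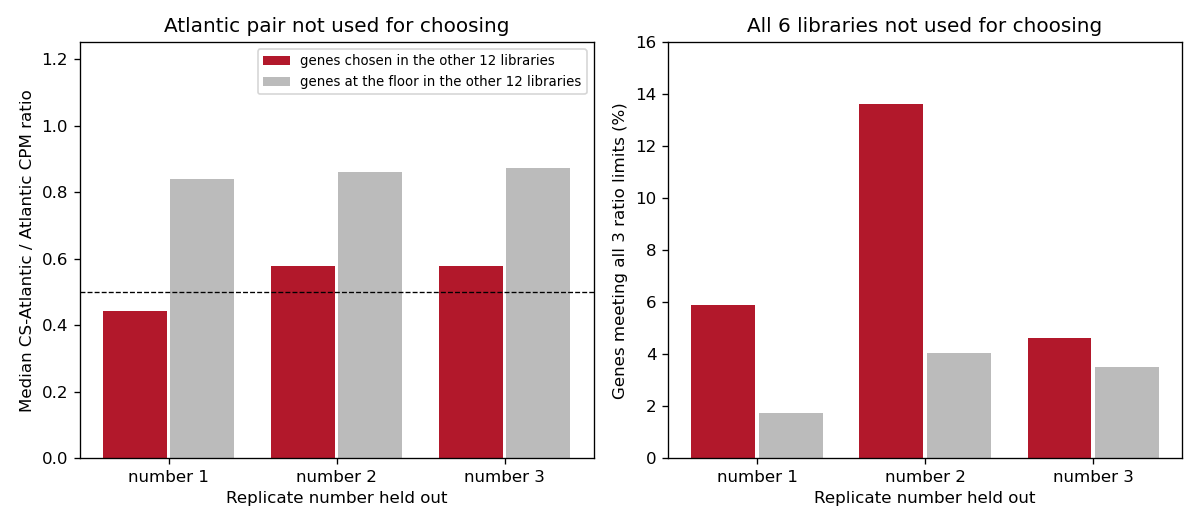
Left, median CS-Atlantic over Atlantic CPM ratio in the pair of libraries with the replicate number left out (1, 2 or 3), for genes chosen in the other 12 libraries (red) and for all genes at 5 CPM or more untreated there (grey), with a dashed line at 0.5; right, percent of the same genes that met the Atlantic limit and both KY windows in the 6 libraries left out. The red Atlantic medians of 0.441, 0.576 and 0.577 lie under the grey ones, and all 3 limits were met by at most 13.6% of the chosen genes.

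In the edgeR quasi-likelihood test of CS-Atlantic against Atlantic (FDR under 0.05 and |log2FC| of at least 1), 31 of the 38 members were called lower, where 2.31% of all genes tested were called lower. The rule used this contrast, so the count is given as a description. DESeq2 called 37 lower, beside 2114 of 57775 genes tested. In a joint fit of all 18 libraries edgeR called 9 lower, beside 216 of 74058 genes tested. Without CS-Atlantic replicate 2 the edgeR count was 19, beside 741 of 62099 genes tested. Without Atlantic replicate 3 it was 20, beside 638 of 62005. Called members had FDR values of 0.00133 to 0.0342. The 7 that were not called had values of 0.0591 to 0.175 and a median of 10.9 CPM in Atlantic (range 6.81 to 22.3 CPM), beside 30.6 CPM (7.54 to 224 CPM) for the called ones, with Soltu.Atl.04_3G008940, Soltu.Atl.11_2G007430 and Soltu.Atl.11_1G015780 among them.

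In KY130, 0 of the 38 members were called by edgeR, where 0.928% of all genes tested were called in either direction. An unadjusted edgeR p under 0.05 was found for 0 members, and DESeq2 called 0. Of the 48717 genes tested, 5276 had such a p, and DESeq2 called 1647 higher and 437 lower. In KY140 the same 3 counts were 0, where edgeR called 1.04% of all genes tested. Of these 47973 genes, 5135 had an unadjusted edgeR p under 0.05, and DESeq2 called 1803 higher and 470 lower. The lowest FDR of a member was 0.635 in KY130 and 0.788 in KY140. A member was bound to a small ratio in these contrasts, so nothing is read from these counts.

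Whether the cold response of Atlantic differed from the mean of the KY130 and KY140 responses was fitted over all 18 libraries. All 38 estimates were negative, which the rule fixes, from −2.67 to −0.80 on the log2 scale. By edgeR 0 of the 38 members passed an FDR of 0.05, with 27 at an unadjusted p under 0.05 (beside 6.44% of all genes tested) and a lowest FDR of 0.178, where 0.00540% of all genes tested passed in this direction. DESeq2 passed 7 members, where 0.386% of all genes passed in this direction. These 7 were Soltu.Atl.02_2G013830, Soltu.Atl.11_4G000110, Soltu.Atl.02_0G003050, Soltu.Atl.04_1G016340, Soltu.Atl.07_3G011700, Soltu.Atl.03_2G024310 and Soltu.Atl.09_1G015090, with log2 differences of −2.01 to −1.15. The rule chose the members on this very difference, so nothing is read from these counts.

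The rule set CS-Atlantic against untreated Atlantic and divided by the untreated KY means, so the levels before and after cold took part in the choice. A high untreated Atlantic and a low CS-Atlantic rank are both favoured by it, and the ranks are a description only. Untreated Atlantic had the highest mean of the 3 cultivars for 16 members, the lowest for 4 and the middle one for 18. It was the highest for 19.9% of the genes at the untreated minimum and for 28.2% of the 344 that met the Atlantic criterion. After cold, CS-Atlantic had the lowest mean for 23 members, the middle for 10 and the highest for 5, and it was the lowest for 36.8% of the genes at the untreated minimum. Of the 16 members that untreated Atlantic led, 5 still led both CS-KY means after cold, and 5 came down below both untreated KY means.

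Between the KY cultivars the direction of the untreated difference was free, and KY130 was tested against KY140. By edgeR 10 of the 38 members (26.3%) were called untreated in either direction, beside 31.8% of the genes at the untreated minimum, so the share of members called was near the background. Of these, 7 were higher in KY130 (beside 14.3% of those genes) and 3 lower (beside 17.4%). DESeq2 called 16 of the 38, of which 13 were higher and 3 lower. Of the 13552 genes at the untreated minimum that were tested, it called 2797 higher and 2445 lower. After cold, 11 members (28.9%) were called in CS-KY130 against CS-KY140, beside 35.2% of the genes at the untreated minimum, 8 of them higher (beside 16.1%) and 3 lower (beside 19.1%). The 2 comparisons had 9 members in common, all with the same sign, 6 higher and 3 lower in KY130. The ratio windows of the rule in KY130 and KY140 keep the difference after cold close to the untreated one. The second comparison is therefore not independent of the first, and nothing is read from their agreement.

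The widest difference was that of Soltu.Atl.12_3G002020, with 565, 608 and 577 CPM in KY130 against 10.3, 5.46 and 0.759 CPM in KY140. It was 106-fold higher by the means, with a log2FC of 6.59 ± 0.89 (SE) and an edgeR FDR of 0.0016. After cold the fold was 104, with a log2FC of 6.45 ± 0.47 (SE). Untreated Atlantic, at 144 to 148 CPM, was between them.

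Soltu.Atl.11_0G010980 had 122, 113 and 124 CPM in KY130 against 3.13, 7.00 and 8.77 CPM in KY140, a 19.0-fold higher mean (log2FC 4.12 ± 0.45 SE, edgeR FDR of 0.000766). In Atlantic it was one of the strongest decreases, with 14.6, 23.0 and 10.1 CPM in CS-Atlantic against 112, 73.6 and 92.5 CPM in Atlantic. In CS-KY130 its libraries were wide apart at 36.7, 64.5 and 176 CPM, which straddle the untreated KY130 values, and CS-KY140 had 9.11, 5.61 and 2.99 CPM. The ratio of 0.773 in KY130 thus rests on 2 low libraries and 1 high one.

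In the other direction, Soltu.Atl.02_2G013830 had 16.2, 17.3 and 16.7 CPM in KY130 against 106, 131 and 142 CPM in KY140, a log2FC of −3.04 ± 0.28 (SE) with an edgeR FDR of 0.00046. The groups did not overlap after cold either, with 19.6, 19.0 and 16.8 CPM in CS-KY130 against 128, 81.5 and 99.8 CPM in CS-KY140. Atlantic stood between them untreated (22.7, 41.2 and 30.6 CPM) and was below both after cold (8.61, 9.57 and 10.7 CPM in CS-Atlantic). Soltu.Atl.04_4G010480, the member with the lowest Atlantic ratio, was also lower in KY130 than in KY140 (log2FC −2.17 ± 0.52 SE, edgeR FDR of 0.0125), as the values given above show.

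**Figure D5:**
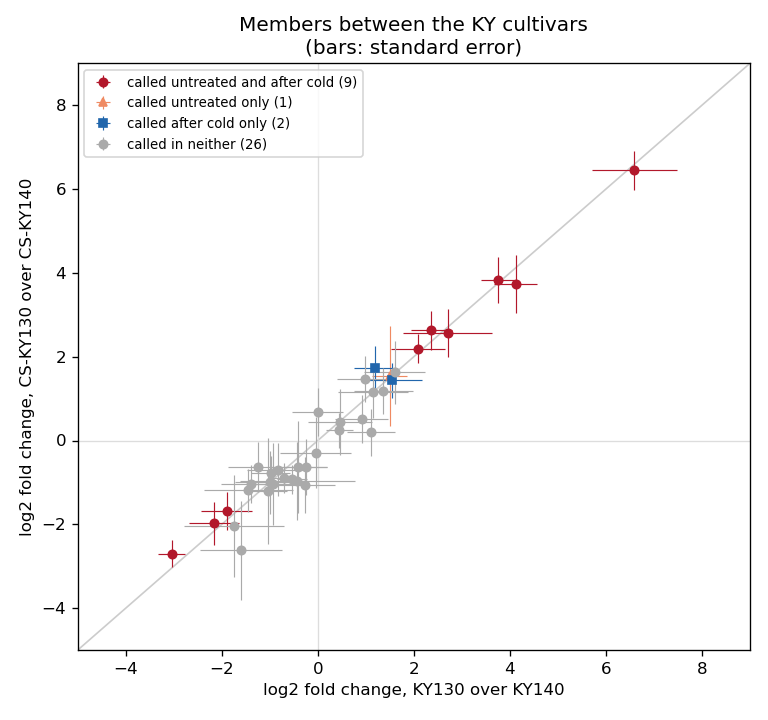
log2 fold change of KY130 over KY140 (horizontal) against that of CS-KY130 over CS-KY140 (vertical) for the 38 members, with standard errors as bars, the line of equal values in grey and colours for the edgeR calls. Members called in both comparisons (9) lie in the lower left and upper right, from −3.04 to 6.59 on the horizontal axis, and 26 members were called in neither. The ratio windows of the rule hold the points near the line of equal values.

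The members were spread over the genome as the identifiers give it, which hold a chromosome, a chromosome copy label and a gene number. The copy labels run from 0 to 4, and what label 0 stands for is not given in the sources used here. All 12 chromosomes had a member, and the 38 fell on 28 combinations of chromosome and copy label. Chromosome 11 held 6 (15.8%, beside 7.31% of the genes at the untreated minimum) and chromosome 4 held 5 (13.2%, beside 9.57%). Copy label 0 held 8 members (21.1%, beside 10.4%) and copy label 3 held 5 (13.2%, beside 26.1%). These shares rest on a few genes each and were not tested.

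No 2 members had consecutive gene numbers, and the closest members under 1 copy label of a chromosome were 1070 apart in gene number. One pair shares a gene number under 2 copy labels of chromosome 11: Soltu.Atl.11_0G000110, described above, and Soltu.Atl.11_4G000110. The second had 20.4, 32.0 and 26.9 CPM in CS-Atlantic against 77.6, 90.0 and 78.0 CPM in Atlantic. In KY130 and KY140 the second gene was level or slightly higher by its means after cold (114, 77.7 and 217 CPM in CS-KY130 against 122, 106 and 135 CPM in KY130, and 96.2, 120 and 74.1 CPM in CS-KY140 against 62.5, 97.4 and 81.9 CPM in KY140). Whether they are copies of 1 gene was not tested, since a shared number does not show it.

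Genes next to a member under the same chromosome and copy label did not share its decrease in general. Among the 5 identifiers on each side of every member, 164 genes reached 5 CPM in untreated Atlantic, and 8 of them (4.88%) met the Atlantic criterion, beside 2.81% of all Soltu.Atl genes at that level. Their median Atlantic ratio was 0.851, beside 0.830.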

How the data were processed

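The values the authors deposited are raw read counts for each gene of 18 libraries. Aligner, counter, genome build and any use of strand were not given in the sources used here. CPM was computed from library totals, and SD is over 3 libraries. The members and gene lists were chosen with earlier results of these data known. Tests used edgeR 4.0.16 (limma 3.58.1, R 4.3.3): filterByExpr with a minimum count of 10, TMM and the quasi-likelihood test with Benjamini-Hochberg adjustment (FDR), in fits of the 2 groups compared, and of all 18 libraries for the difference between cultivars. The SE is the size of the log2FC over the square root of F. The scripts were tested on simulated data. Alternatives were DESeq2 1.42.0, RLE factors, 2 other count filters, no fold threshold, a joint fit, a replicate block, libraries left out, and other settings of the rule. Genes named are the 4 members with the lowest Atlantic ratio, the 4 highest in untreated Atlantic, those nearest to the Atlantic threshold, the 2 lowest and 2 highest called members in KY130 over KY140, and any of the study's genes that is a member. Soltu.Atl.11_4G000110, Soltu.Atl.07_3G011700, Soltu.Atl.09_4G021200, StCSE and the DESeq2 calls of the difference between cultivars were named after their values were seen. The 24264 genes with a number in place of a Soltu.Atl identifier could not be members.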

Additional observations from a re-analysis of the deposited data

How the results depend on the processing

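How many genes met the rule depended on its settings. An untreated minimum of 10 CPM left 16, a window of 0.8 to 1.2 left 11, and the Atlantic criterion on means in place of the extreme libraries gave 378. Leaving out 1 library gave 29 to 89 genes, with 66 to 89 when it came from Atlantic or CS-Atlantic, where fewer libraries are easier to separate, and 61 without CS-KY130 replicate 1. Of the 38 members, 25 to 38 were among them. TMM library sizes gave 46 genes with 32 of the members. The members' median log2 ratio in Atlantic was −1.83, and −1.68 with the minimum of 10 CPM, −1.26 with the criterion on means and −1.88 to −1.67 without 1 library. In the libraries left out by replicate number, genes that met all 3 limits were 8 with number 1, 15 with number 2 and 5 with number 3. Members called in Atlantic were 31, and 9 in the joint fit of 18 libraries and 19 to 25 without 1 library. Members called between untreated KY130 and KY140 were 10, and 16 with DESeq2. For the difference between the Atlantic and KY responses, 0 members were called, and 7 with DESeq2. With no count filter 2 were called, beside 356 lower of 114281 genes tested. The cause of these changes was not tested. RLE factors moved the median log2FC of all genes between untreated KY130 and KY140 to 0.42, against 0.27 with TMM, and no called member changed sign under any setting of that comparison. Libraries with the same replicate number showed weak correlations of deviations (−0.14 to 0.19), which cannot settle whether the numbers pair the samples. A replicate block gave 24 members called in Atlantic, 7 between untreated KY130 and KY140, and 9 after cold. It gave 0 for KY130, KY140 and the difference between cultivars. Over the genes named by the rule, 184 of 208 alternative values kept their direction and side of the threshold, 20 lost the call, 4 gained it and 0 reversed.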
